A study of Mus musculus with 16 samples.

Results

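Fc receptors bind the constant part of antibodies, and their genes were followed here in CD11b+ dendritic cells from lungs with a tumour. Of 7 Fc receptor genes chosen by symbol, 6 had a probe set annotated with that symbol alone, out of 19938 genes that could be named in this way. They were Fcgr1, Fcgr3, Fcgr4, Fcer1g, Fcgr2b and Fcer1a, each with 1 probe set, and Fcgrt, the gene of the neonatal Fc receptor, was not analysed here. The cells, all from the lungs of mice bearing a tumour, carried CD11b, CD11c and MHC class II and were separated by flow sorting. The tumour was Lewis lung carcinoma (LLC), a single transplantable line, inoculated into the airways of C57BL/6 mice, which are immunocompetent and share the line's genetic background. The first group, tumoral, holds 8 arrays of cells from the tumour, and the second, peritumoral, holds 8 arrays of cells from the lung tissue around it. The labels give no age, sex or pooling and no tumour-free lung, and no label ties an array to an animal, so p-values measure the spread between arrays, which may be partly technical.

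Activating Fc gamma receptors such as those encoded by Fcgr1 (CD64), Fcgr3 and Fcgr4 capture IgG-coated particles and signal through the common gamma chain encoded by Fcer1g, which carries an activating tyrosine motif and is also needed to hold these receptors at the surface. Fcgr2b encodes the inhibitory IgG receptor, which recruits phosphatases, and Fcer1a encodes the IgE-binding chain of the high-affinity IgE receptor. In mouse lung, CD64 is widely used to set monocyte-derived cells and macrophages apart from conventional dendritic cells, so these genes are also markers of myeloid cell type. In arrays of sorted cells, fewer cells of a type and less RNA per cell cannot be told apart.

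The promoters of the 3 activating receptor genes are shown. Over all arrays r was 0.93 for Fcgr1 and Fcgr3, 0.88 for Fcgr1 and Fcgr4 and 0.77 for Fcgr3 and Fcgr4. Joint variation was not particular to these 3 genes, since r was 0.95 for Fcgr3 and Fcer1g and 0.90 for Fcgr3 and Fcgr2b. With Fcgr1, r was 0.88 for Fcer1g and 0.74 for Fcgr2b, and with Fcgr4 it was 0.74 and 0.50. The windows come from RefSeq (GRCm38.p6) and hold 250 bases before and 50 after the annotated start, 5′ to 3′ on the gene's strand. For Fcgr3, which has 2 annotated starts in that table, the first was taken. Capitals mark GAGGAA, the core of sites for the myeloid factor PU.1, searched on both strands and so also read as TTCCTC, and TTCNNNGAA, the core bound by STAT factors after interferon, whose reverse complement is itself.
Fcgr1 promoter, chr3:96293920-96294219, minus strand: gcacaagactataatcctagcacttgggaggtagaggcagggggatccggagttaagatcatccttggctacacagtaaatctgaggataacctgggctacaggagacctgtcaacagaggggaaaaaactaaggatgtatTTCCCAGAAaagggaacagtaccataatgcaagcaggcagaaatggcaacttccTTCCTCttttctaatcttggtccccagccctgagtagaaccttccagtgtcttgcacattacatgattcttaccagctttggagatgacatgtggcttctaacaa
Fcgr3 promoter, chr1:171059354-171059653, minus strand: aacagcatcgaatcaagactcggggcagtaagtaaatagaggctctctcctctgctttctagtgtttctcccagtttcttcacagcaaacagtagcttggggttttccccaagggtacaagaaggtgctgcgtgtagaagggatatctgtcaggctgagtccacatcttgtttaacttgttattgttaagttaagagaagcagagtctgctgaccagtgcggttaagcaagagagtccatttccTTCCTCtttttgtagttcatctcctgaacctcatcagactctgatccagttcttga
Fcgr4 promoter, chr1:171018676-171018975, plus strand: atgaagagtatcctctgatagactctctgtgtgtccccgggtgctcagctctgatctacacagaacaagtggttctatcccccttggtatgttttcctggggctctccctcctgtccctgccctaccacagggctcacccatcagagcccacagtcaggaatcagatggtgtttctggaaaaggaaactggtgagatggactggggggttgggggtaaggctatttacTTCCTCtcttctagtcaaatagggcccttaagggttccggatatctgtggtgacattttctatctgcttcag
GAGGAA was found on the opposite strand in each of these windows, 55, 6 and 22 bases before the start of Fcgr1, Fcgr3 and Fcgr4. TTCNNNGAA was found in Fcgr1 alone of the 6 measured genes, 109 bases before the start, and it does not overlap the other motif. Among the first windows of 15614 genes tested, 27.0% held GAGGAA and 7.83% held TTCNNNGAA, so the first motif is common. The windows of Fcer1g and Fcgr2b held neither motif, and that of Fcer1a held GAGGAA. A match describes letters only.

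The arrays differed in ways that the labels did not follow. Peritumoral 4 correlated with the other arrays at 0.972 or less, against 0.964 to 0.997 among the remaining 15, and its endothelial marker mean was 10.76, against 8.49 or less elsewhere. On the first principal component of all probe sets, which held 43.6% of the variance, the arrays at deposited positions 3, 6, 9, 12 and 15 scored 30.5 to 43.1, and the other 11 scored 6.96 or less. Those positions belong to peritumoral 3 and 6 and tumoral 1, 4 and 7, so they lie under both labels. The same 5 arrays had the highest upper quartiles of the value distribution, 8.46 to 8.59 against 8.45 or less. No label names a batch or a condition for these positions, and none was inferred. Whether the titles give the true tissue of each array was not tested, and each tumoral minus peritumoral value below rests on them. The genes of the sorting markers were above the lower quartile in every array. In tumoral arrays the CD11c gene Itgax averaged 11.62 ± 0.08, against 11.47 ± 0.24 in peritumoral arrays (SD, n = 8 each). The CD11b gene Itgam averaged 11.31 ± 0.25 in tumoral arrays, against 11.22 ± 0.50 in peritumoral arrays. For H2-Ab1, which encodes a chain of MHC class II, tumoral arrays averaged 13.25 ± 0.08, against 13.21 ± 0.13 in peritumoral arrays. The dendritic cell factor Zbtb46 spanned 7.27 to 8.49 and the growth factor receptor gene Flt3 8.73 to 10.45, while the macrophage lysozyme gene Lyz2 spanned 12.90 to 13.25 and the engulfment receptor gene Mertk 9.73 to 10.89. These 4 were chosen after their values were seen, and their levels are given as a description.

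None of the Fc receptor genes separated tumoral from peritumoral arrays. The limma test, adjusted by Benjamini-Hochberg over 19938 genes, called 0 of the 6 at an adjusted p under 0.05, where 0% of all genes were called. Without peritumoral 7 that count was 128 genes and without peritumoral 8 it was 20, with 0 of the 6 among them. At an unadjusted p under 0.05, 0 of 6 passed, against 11.5% of all genes in limma, 5.6% higher and 5.9% lower in tumoral arrays. For 0 of 6 were the tumoral and peritumoral values free of overlap, against 0.0853% of all genes. The IgG receptor genes and Fcer1g were slightly higher on average in tumoral arrays and Fcer1a slightly lower. All values are log2 expression values, and a difference is tumoral minus peritumoral.

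**Figure D1:**
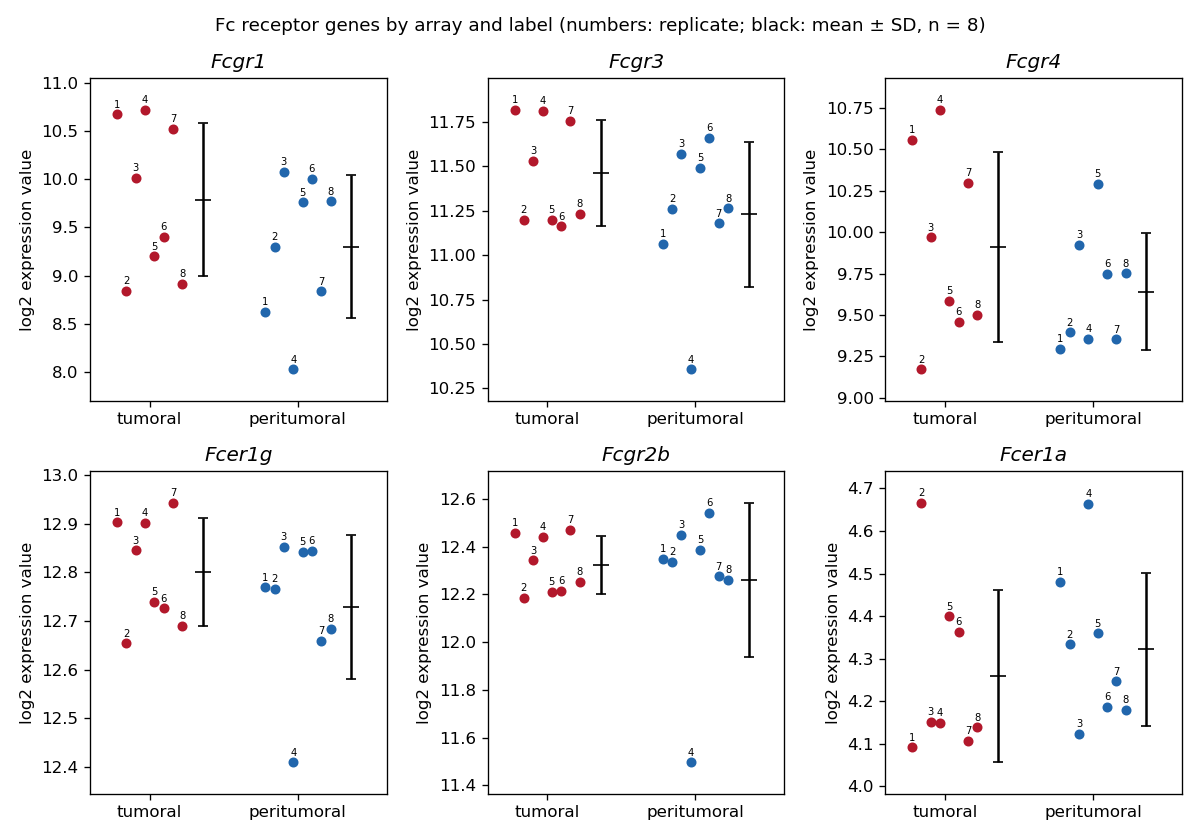
Log2 expression value of 6 Fc receptor genes in each array, tumoral to the left of peritumoral, with the replicate number above each point and the mean ± SD (n = 8) in black. The labels overlap for each gene; tumoral 1, 4 and 7 lead Fcgr1, Fcgr3 and Fcgr4, and peritumoral 4 is lowest for Fcgr1, Fcgr3, Fcer1g and Fcgr2b.

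Fcgr1, the high-affinity IgG receptor gene, was the most variable of the set. In deposited order it measured 10.67, 8.84, 10.01, 10.72, 9.20, 9.40, 10.53 and 8.92 in tumoral 1 to 8, and 8.63, 9.30, 10.08, 8.03, 9.76, 10.01, 8.84 and 9.77 in peritumoral 1 to 8. Tumoral 4, 1 and 7 were highest, followed by peritumoral 3, whereas tumoral 2 and 8 lay with peritumoral 1 and 7 at the low end. The span of 2.70 from the lowest to the highest array is a 6.49-fold difference, and 98.7% of all genes had a smaller SD over the 16 arrays. Tumoral arrays averaged 9.79 ± 0.79, against 9.30 ± 0.74 in peritumoral arrays. The difference of 0.49 (SE 0.35, 95% interval -0.24 to 1.21) had a limma adjusted p of 0.605 and an exact two-sided permutation p of 0.223 over 12870 assignments. Only 4 of 8 tumoral arrays lay above the peritumoral median, and the label accounted for 10.3% of the variance of Fcgr1. Without peritumoral 4, the lowest array, the difference was 0.31.

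Fcgr3, an activating low-affinity IgG receptor gene, had the same 3 arrays at the top. It spanned 11.16 to 11.82 with a median of 11.38 in tumoral arrays and 10.36 to 11.66 with a median of 11.26 in peritumoral arrays. The 5 highest values were those of tumoral 1, 4 and 7 and peritumoral 6 and 3, and peritumoral 4 was lowest. The difference of 0.23 (95% interval -0.11 to 0.58) had a limma adjusted p of 0.603 and was 0.11 without peritumoral 4. Fcgr4, a further activating receptor gene that binds IgG2 subclasses in mouse, spanned 9.17 to 10.74 with a median of 9.78 in tumoral arrays and 9.30 to 10.29 with a median of 9.57 in peritumoral arrays. Tumoral 4, 1 and 7 led again, here followed by peritumoral 5, and the lowest value was that of tumoral 2. Its difference of 0.27 (95% interval -0.18 to 0.72) had a limma adjusted p of 0.645 and was 0.23 without peritumoral 4. Exact permutation p-values were 0.218 for Fcgr3 and 0.270 for Fcgr4.

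Fcer1g, the shared signalling chain, varied little. It spanned 12.65 to 12.94 with a median of 12.79 in tumoral arrays and 12.41 to 12.85 with a median of 12.77 in peritumoral arrays. Its span of 0.53 over the 16 arrays is a 1.45-fold difference, and the array order resembled that of Fcgr1 with tumoral 7, 1 and 4 on top. The difference of 0.07 (95% interval -0.07 to 0.22, limma adjusted p = 0.706) was 0.03 without peritumoral 4. The inhibitory receptor gene Fcgr2b spanned 12.19 to 12.47 with a median of 12.30 in tumoral arrays and 11.50 to 12.54 with a median of 12.34 in peritumoral arrays. Its lowest value, in peritumoral 4, lay apart from the next peritumoral value of 12.26. The difference of 0.06 (95% interval -0.18 to 0.30, limma adjusted p = 0.879) was -0.049 without that array, so its sign rested on peritumoral 4. Fcgr2b and Fcgr3 encode very similar extracellular parts, and how far their probe sets read each other's transcripts was not tested.

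Fcer1a, the IgE-binding chain, was dim throughout. It spanned 4.09 to 4.67 with a median of 4.15 in tumoral arrays and 4.12 to 4.66 with a median of 4.29 in peritumoral arrays. In 16 of 16 arrays it lay below the array median, and all its values were under the lowest lower quartile of any array, 5.50. Tumoral 2 and peritumoral 4 were highest. The difference of -0.06 (95% interval -0.26 to 0.13) had a limma adjusted p of 0.831 and was -0.01 without peritumoral 4. Across the 16 arrays the value of Fcer1a moved with the lower quartile of the array (r = 0.74), whereas that of Fcgr1 moved against it (r = -0.78). After quantile normalization, these correlations with the deposited lower quartile were 0.51 and -0.74. The span of Fcgr1 was 2.62 after quantile normalization, against 2.70 as deposited. The part of the array distribution in these values was not tested. The span of Fcer1a was 0.46 after quantile normalization, against 0.58 as deposited.

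**Figure D2:**
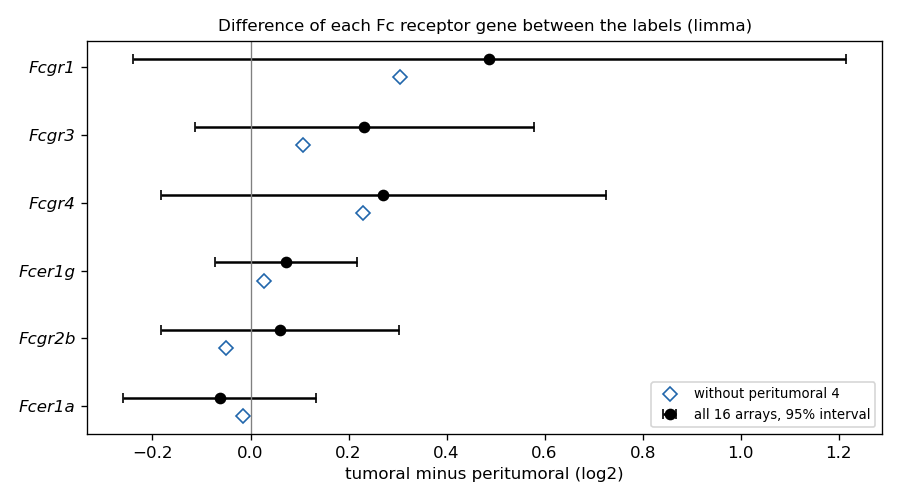
Difference of each gene between the labels (tumoral minus peritumoral, log2) on the horizontal axis, as the limma estimate with its 95% interval from all arrays and, as open diamonds, the estimate without peritumoral 4. Each interval includes 0, from Fcgr1 at 0.49 to Fcer1a at -0.06, and Fcgr2b changes sign without that array.

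The balance of activating to inhibitory receptor transcripts was followed as the log2 value of each activating gene minus that of Fcgr2b in the same array, whose differences between arrays can be read but whose absolute level cannot. For Fcgr1 it averaged -2.54 ± 0.68 in tumoral and -2.96 ± 0.53 in peritumoral arrays, and for Fcgr4 -2.41 ± 0.46 and -2.62 ± 0.37. For Fcgr3 it averaged -0.86 ± 0.18 in tumoral and -1.03 ± 0.14 in peritumoral arrays. The labels overlapped for each. Relative to Fcgr2b, Fcgr1 was highest in tumoral 4, 1 and 7 (-1.72, -1.78 and -1.94) and lowest in peritumoral 1 (-3.72), so Fcgr1 and Fcgr2b changed unequally over the arrays. Without peritumoral 4 the differences between the labels were 0.35 for Fcgr1, 0.28 for Fcgr4 and 0.16 for Fcgr3, against 0.43, 0.21 and 0.17 with all arrays.

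The activating receptor genes, Fcer1g and Fcgr2b varied together over the tumoral arrays, and less closely over peritumoral arrays other than 4. Correlations are given as a description without a p, since the arrays fall into 2 sets on the first component and each pair of values shares an array. Fcgr1 and Fcgr3 correlated at r = 0.96 over the 8 tumoral and r = 0.93 over the 8 peritumoral arrays, and at r = 0.86 over the 11 arrays outside positions 3, 6, 9, 12 and 15. For Fcgr1 and Fcgr4 these values were 0.97, 0.75 and 0.75. Fcer1g correlated with Fcgr3 at 0.95, 0.94 and 0.91 and with Fcgr2b at 0.96, 0.96 and 0.92. Peritumoral 4, low in 4 of these genes, lifted several of these values. Among the peritumoral arrays other than 4, r was 0.90 for Fcgr1 and Fcgr3, 0.75 for Fcer1g and Fcgr3, 0.58 for Fcgr1 and Fcer1g and 0.58 for Fcgr1 and Fcgr2b. With all 8 peritumoral arrays the last 2 pairs had 0.81 and 0.79. Over the 10 arrays left when peritumoral 4 is taken from the 11, r was 0.82 for Fcgr1 and Fcgr3, 0.83 for Fcgr1 and Fcgr4 and 0.33 for Fcgr1 and Fcgr2b. The loosest pair among these 5 genes over all arrays was Fcgr4 and Fcgr2b, with 0.95 in tumoral arrays, 0.42 in peritumoral arrays and 0.34 over the 11 arrays. Fcer1a ran against the others, with r from -0.71 to -0.79 in tumoral arrays and from -0.44 to -0.87 in peritumoral arrays. Among the peritumoral arrays other than 4, Fcer1a correlated with Fcer1g at -0.03 and with Fcgr2b at -0.26, so within the peritumoral label those relations rested on peritumoral 4.

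**Figure D3:**
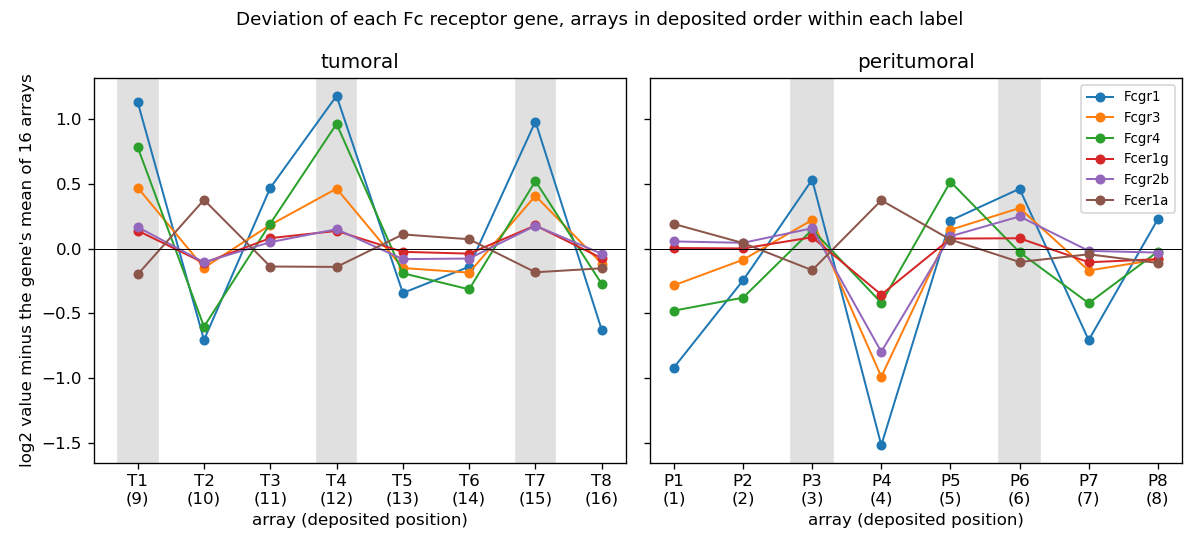
Log2 value of each gene minus its mean over the 16 arrays, with arrays in deposited order within each label (tumoral left, peritumoral right; the position is in brackets) and grey bands at positions 3, 6, 9, 12 and 15. Fcgr1, Fcgr3, Fcer1g and Fcgr2b lie above their means at each grey band; Fcer1a lies below its mean there, and peritumoral 4 is the low point of Fcgr1, Fcgr3, Fcer1g and Fcgr2b.

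The genes whose pattern was most like each member were taken by Pearson's r over 16 arrays, the 3 highest for each. For Fcgr1 they were Fnip2, a folliculin partner (r = 0.99), Clec4n, which encodes the fungal receptor Dectin-2 that signals through the same gamma chain (0.98), and the proton pump subunit gene Atp6v1c1 (0.98). For Fcgr3 they were the transcription factor gene Mitf (0.98), the chemokine gene Ccl9 (0.98) and Myof (0.96). For Fcgr4 they were Srprb (0.95), the monocyte-attracting chemokine gene Ccl8 (0.94) and Txndc11 (0.94). Clec4n spanned 8.68 in peritumoral 4 to 11.59 in tumoral 7. For Fcer1g they were Lpcat2 (0.96), the chemokine receptor gene Ccr1 (0.96) and Ola1 (0.96), and for Fcgr2b Wfdc17 (0.95), Zfp991 (0.95) and Smim24 (0.95). For Fcer1a they were the pheromone receptor gene Vmn1r89 (0.94), the olfactory receptor gene Olfr586 (0.94) and Esp1 (0.91), the gene of a tear pheromone. Only 4 of these 18 genes, Fnip2, Srprb, Vmn1r89 and Olfr586, were among the 3 most like their member without peritumoral 4. For Fcgr2b, r was then 0.88 with Wfdc17, 0.80 with Zfp991 and 0.78 with Smim24, at ranks 805, 2068 and 2367 of all genes. For Fcgr3, Myof was then at rank 136. Likeness alone was not particular to Fcgr1, since 2.34% of all genes correlated with it above 0.9. By this measure over the 16 arrays Fcgr3 was the most like Fcer1g of the members, at rank 6 among all genes. This order did not hold within the labels. In tumoral arrays r with Fcer1g was 0.97 for Fcgr1, 0.96 for Fcgr2b and 0.95 for Fcgr3. In peritumoral arrays it was 0.96 for Fcgr2b and 0.94 for Fcgr3.

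Markers of macrophages varied with Fcgr1 and Fcgr3 across the arrays, less closely with Fcer1g and Fcgr2b, and against Fcer1a. With Fcgr4 they varied less closely in peritumoral arrays but not in tumoral arrays. The mean of 10 macrophage genes, each taken as its deviation from its own mean, correlated with Fcgr1 at r = 0.95 in tumoral and 0.94 in peritumoral arrays, and at 0.92 over the 11 arrays named above. With Fcgr3 these values were 0.95, 0.95 and 0.96. They were 0.97, 0.61 and 0.58 with Fcgr4, 0.89, 0.86 and 0.87 with Fcer1g, and 0.90, 0.86 and 0.83 with Fcgr2b. With Fcer1a they were -0.58, -0.86 and -0.59. Over the 10 arrays left without peritumoral 4, r was 0.91 with Fcgr1 and 0.17 with Fcgr2b. Each of the 10 genes had a positive r with Fcgr1 over the 16 arrays, from 0.14 for Adgre1 to 0.95 for the lysosomal gene Cd68, whereas 41.5% of all genes did. The mean level of the list spanned 11.19 to 11.79 in tumoral and 10.78 to 11.67 in peritumoral arrays. The mean of the monocyte list correlated with Fcgr1 at 0.81 in tumoral and 0.58 in peritumoral arrays. That of the alveolar macrophage list did so at 0.51 and -0.74, or -0.36 in peritumoral arrays other than 4. Lists of several other cell types ran against Fcgr1. The mean of the NK cell list correlated with Fcgr1 at -0.98 in tumoral and -0.80 in peritumoral arrays, that of the B and plasma cell list at -0.95 and -0.86, and that of the lung epithelium list at -0.89 and -0.88. Over the 10 arrays these values were -0.58, -0.65 and -0.32. The NK cell list was dim in tumoral arrays, with a mean level of 5.86 to 6.40, under the lowest median of any array, 6.75. Fcgr1 itself moved against the lower quartile of the array (r = -0.78), and the part of the array distribution in these correlations was not tested. Conventional dendritic cell genes also ran against Fcgr1, with 8 of 10 at a negative r and 2 at a positive r, against 41.5% of all genes at a positive r. The 10 genes ran from -0.77 for the lectin gene Cd209a to 0.09 for Runx3. Their mean correlated with Fcgr1 at -0.92 in tumoral arrays and at -0.45 in peritumoral arrays, or -0.83 without peritumoral 4. Over the 11 arrays outside the 5 positions r was 0.09, and over the 10 of them other than peritumoral 4, which was low in both measures, it was -0.73. The mean level of the dendritic cell list spanned 9.79 to 10.80 in tumoral and 9.57 to 10.82 in peritumoral arrays. The part of cell composition in the Fc receptor values was not tested.

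**Figure D4:**
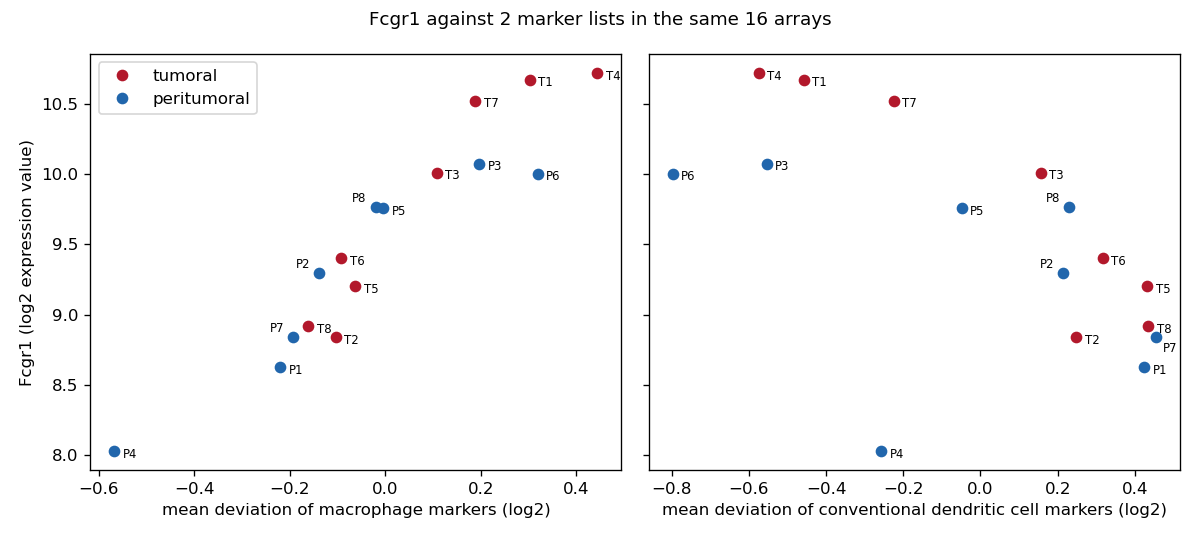
Fcgr1 (log2 expression value) against the mean deviation (log2) of 10 macrophage markers, left, and of 10 conventional dendritic cell markers, right; each point is an array, T for tumoral and P for peritumoral. The points climb with macrophage markers under both labels (r = 0.95 and 0.94), while on the right peritumoral 4 lies apart from the other arrays.

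The list of complement genes, some of whose products tag particles for phagocytes, had the mean that followed Fcgr1 most closely of the lists. The mean of 13 complement genes and receptors correlated with Fcgr1 at r = 0.99 in tumoral and 0.98 in peritumoral arrays, and at 0.96 over the 11 arrays. Over the 16 arrays 11 of the 13 had a positive r with Fcgr1 and 2 a negative one, where 41.5% of all genes had a positive r. The lowest was Cr2 (r = -0.68), and the highest was C1qc (r = 0.93), a chain of the antibody-binding complement factor C1q. Between the labels 10 of the 13 were higher and 3 lower on average, with a median difference of 0.15 that was 0.06 without peritumoral 4. Cr1l, a complement regulator gene, differed by 0.25, Vsig4, a receptor for complement fragments, by -0.46 and C1qa by 0.37. Vsig4 was dim, with averages of 4.46 in tumoral and 4.92 in peritumoral arrays, under the lowest lower quartile of any array, 5.50. C1qa was 10.02 in peritumoral 4, against 10.94 or more in the other peritumoral arrays, and differed by 0.22 without it.

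Genes that act with the Fc receptors gave no call between the labels. Of 130 different genes in 9 lists of function 82 were higher and 48 lower in tumoral arrays, and limma called 0 (adjusted p under 0.05), where 0% of all genes were called. Their median difference was 0.05, against -0.02 over all genes, of which 41.7% were higher. Without peritumoral 4, 72 were higher and 58 lower, with a median of 0.02. The smallest adjusted p in any of these lists was 0.246.

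Among 22 kinases and adaptors of activating signalling, 15 were higher and 7 lower, with a median of 0.06 that was 0.01 without peritumoral 4. The adaptor gene Blnk differed by 0.39 and the exchange factor gene Vav3 by 0.27, whereas Plcg1, a phospholipase gene typical of T cells, differed by -0.45. Plcg1 was 9.08 in peritumoral 4, against 7.76 or less in the other peritumoral arrays, and differed by -0.26 without it. Of 15 phagocytic actin and oxidase genes 11 were higher, with a median of 0.09 that was 0.02 without that array. Cdc42, whose product steers actin assembly, differed by 0.18, Rac2, whose product activates the phagocyte oxidase, by -0.18, and the actin regulator gene Coro1a by 0.14. Among 18 genes of inhibitory signalling 14 were higher, with a median of 0.09 that was 0.02 without peritumoral 4. Its leading members were inhibitory receptors of myeloid cells, with Cd300a at 0.31, the lectin gene Clec12a at 0.30 and Lilrb4a at 0.19.

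Of 15 other receptors and adaptors with or beside an activating tyrosine motif 7 were higher and 8 lower, with a median of -0.02 that was -0.05 without peritumoral 4. Cd247, the zeta chain of the T cell receptor, differed by -0.23, the osteoclast-associated receptor gene Oscar by -0.54 and Lilra5 by 0.31. Of 12 Fc receptor genes outside the 6 measured members 3 were higher and 9 lower, with a median of -0.13 that was -0.05 without peritumoral 4. Ms4a2, the beta chain of the IgE receptor, averaged 4.08 ± 0.12 in tumoral arrays, against 4.24 ± 0.14 in peritumoral arrays. Both averages were under the lowest lower quartile of any array, 5.50. The Fc receptor-like gene Fcrls differed by 0.34 and Fcrl5 by -0.13, or by 0.23 and -0.07 without peritumoral 4.

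The remaining lists held genes of antibody recycling, antigen routing and the control of Fc receptor levels. Of 12 genes of recycling endosomes and of the FcRn partner 6 were higher and 6 lower. Their median of 0.03 was -0.01 without peritumoral 4, and Cd1d1 differed by 0.28, the fusion gene Stx4a by 0.23 and the GTPase gene Rab11a by 0.24. Of 10 genes that route antigen after uptake 9 were higher, with a median of 0.06, the peptide exchange gene H2-DMa at 0.26, the protease gene Ctss at 0.19, or 0.12 without peritumoral 4, and the MHC class II gene H2-Aa at 0.06. Among 13 cytokine, interferon and lineage genes known to set Fc receptor levels 7 were higher and 6 lower, with a median of 0.03 that was -0.02 without peritumoral 4. Irf1, an interferon-induced factor, differed by 0.36, Tgfb1 by 0.14 and the receptor gene Il10ra by 0.20. The limma adjusted p-values of the genes named in these 3 lists lay between 0.363 and 0.693.

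Markers of mast cells, neutrophils, lymphocytes, alveolar macrophages and non-immune cells, which could enter the sort, had their highest mean level in peritumoral 4. For mast cells and basophils, which carry the IgE receptor, 9 of 10 genes were lower on average in tumoral arrays, with a mean level of 5.74 to 6.19 in tumoral and 5.80 to 6.71 in peritumoral arrays. The protease gene Cpa3 was 5.69 in peritumoral 4, against 4.89 or less in the other peritumoral arrays. The mean of this list correlated with Fcer1a at r = 0.87 in tumoral and 0.83 in peritumoral arrays, or 0.48 in peritumoral arrays other than 4, and both lie in the dim part of the arrays. All 9 B and plasma cell genes, 7 of 9 NK cell genes and 7 of 7 T cell genes were lower on average in tumoral arrays. Their mean levels in tumoral arrays spanned 5.98 to 7.11, 5.86 to 6.40 and 6.33 to 6.78, and in peritumoral arrays 6.02 to 8.63, 5.88 to 7.69 and 6.50 to 8.27. Cd79b differed by -0.41, Pax5 by -0.28, Klre1 by -0.11, Eomes by -0.37, Cd5 by -0.37 and Cd3g by -0.94. Klre1 was dim, with averages of 3.68 in tumoral and 3.79 in peritumoral arrays, under the lowest lower quartile of any array, 5.50. Without peritumoral 4, Cd79b differed by -0.15, Pax5 by -0.08, Eomes by -0.16 and Cd3g by -0.60. The list medians were then -0.03 for B and plasma cells, -0.06 for NK cells and -0.28 for T cells, against -0.28, -0.30 and -0.51 with all arrays. Without peritumoral 4 and 7 the B and plasma cell median was 0.08.

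Neutrophils, which carry Fcgr3 and Fcgr4 products, had 11 of 12 markers lower in tumoral arrays, with a mean level of 6.21 to 6.89 in tumoral and 6.34 to 7.89 in peritumoral arrays. Lcn2 differed by -1.25 and Ltf by -0.21, and the list median of -0.49 was -0.26 without peritumoral 4. The neutrophil mean level was 7.89 in peritumoral 4 and 7.74 in peritumoral 5. Alveolar macrophage genes were lower for 8 of 9, with Krt79 at -0.30 and Car4 at -0.89, or -0.13 and -0.39 without peritumoral 4. Monocyte genes were higher for 4 of 7, with Ms4a4c at 0.50 and the lipopolysaccharide co-receptor gene Cd14 at 0.31, and macrophage genes for 8 of 10, with Cd63 at 0.75 and Mrc1, a mannose-binding lectin gene, at 0.20. Dendritic cell genes were higher for 8 of 10, with Runx3 at 0.19, or 0.12 without peritumoral 4. All 10 endothelial, 9 fibroblast, 10 lung epithelial and 8 keratin and carcinoma genes were lower in tumoral arrays. Among them Cdh5 differed by -1.70, Emcn by -1.45, Dcn by -2.02, Col3a1 by -0.37, Hopx by -0.57, Ager by -0.53, Krt8 by -0.65 and Tead1 by -0.52. Without peritumoral 4, Emcn differed by -0.89 and Ager by -0.29. The list medians were then -0.43 for endothelium, -0.28 for fibroblasts, -0.25 for lung epithelium and -0.26 for keratin and carcinoma genes, against -0.83, -0.44, -0.55 and -0.41 with all arrays. Peritumoral 7 had the next highest endothelial mean level, 8.49, and without peritumoral 4 and 7 the endothelial median was -0.24. The endothelial mean level was 6.60 to 6.76 in tumoral and 6.65 to 10.76 in peritumoral arrays, and the Fc receptor genes other than Fcgr4 and Fcer1a were lowest in the array with the highest endothelial level, peritumoral 4. In these 13 marker lists limma called 0 genes (adjusted p under 0.05), with a smallest adjusted p of 0.232. The part of these cells in the Fc receptor values was not tested.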

How the data were processed

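RNA of sorted lung myeloid cells was measured on 16 whole-transcript arrays. Per the labels' protocols, sense cDNA was made from total RNA by in vitro transcription (Ambion), then fragmented and biotin-labelled for Affymetrix arrays. The deposited values were read as log2 expression, since they run from 2.31 to 14.33; the sources used here do not give the log base, the background correction or the normalization. No depth applies, and the number of arrays limits the precision.

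Of 28853 probe sets, 21789 carried 1 gene symbol, 1621 several and 5443 none. The brightest probe set per symbol was kept, giving 19938 genes with no filter on dim values. All 6 measured members matched their current symbol by gene ID in a RefSeq table of GRCm38.p6. The test of tumoral against peritumoral arrays was limma's moderated test (limma 3.58.1, R 4.3.3; 14 residual degrees of freedom), checked on simulated data. Exact permutation tests used 12870 assignments. Correlations over arrays were planned with a permutation p and are given without one, because the arrays fall into separate sets on the first component.

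The members and the 22 gene lists (250 of 268 entries tested) were chosen with earlier results of these data known, so no list was tested and no p was adjusted over a list. Genes named by rule are the members, the sorting markers, the 3 (function) or 2 (marker) genes of smallest p in each list, and the 3 most like each member. Zbtb46, Flt3, Lyz2, Mertk and the genes at either end of a list's r with Fcgr1 were named after their values were seen. Alternatives were a replicate block, other normalizations, dim-gene filter, variance models, array weights, probe-set averaging and left-out arrays.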

Additional observations from a re-analysis of the deposited data

Results flagged for a closer look

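An array was marked where its value lay far from the other 7 of its label, by a gap to its neighbour above the Dixon critical value for 8 arrays. Over 156 checks of the 78 genes named by rule 26 values were marked, 23 of them in peritumoral 4. Chance marks about 1 independent check in 20. The count cannot be set against that rate, because the checks share arrays and many genes were named by their values in these same arrays. For 3 Fc receptor genes the marked array was peritumoral 4. Fcgr2b measured 11.50 there, against a next lowest peritumoral value of 12.26. Fcgr3 measured 10.36 against 11.06, and Fcer1g 12.41 against 12.66. The differences of these genes without that array stand beside their results.

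Peritumoral 4 was also far below the other peritumoral arrays for C1qa (10.02), Ccr1 (8.88), Clec12a (9.82), Ctss (11.47), Lilrb4a (11.79), Lpcat2 (10.02), Myof (9.91), Smim24 (8.13), Stx4a (7.70), Wfdc17 (11.90) and Zfp991 (8.09). It was far above them for Ager (9.74), Cd79b (10.63), Col3a1 (8.16), Cpa3 (5.69), Eomes (7.25), Esp1 (6.14), Krt79 (8.24), Pax5 (8.22) and Plcg1 (9.08). The low genes include phagocyte genes and the high genes include markers of epithelium, B cells, NK cells, fibroblasts and mast cells. Elsewhere, Cr1l was high in peritumoral 7 (8.33), Mrc1 high in tumoral 4 (11.76) and Olfr586 high in tumoral 2 (6.38). Fcer1a was also highest in tumoral 2.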

How the results depend on the processing

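Of 149 results of the 6 genes under an alternative, 147 kept their direction and stayed short of the threshold, and 2 reversed. The replicate block, dim-gene filter, variance models, probe-set averaging and permutation test repeat the difference of the main fit. For these only the p-value could change, so their kept direction carries no information. The value of Fcgr2b was -0.049 when peritumoral 4 was left out and -0.065 when peritumoral 7 was dropped as well, against 0.06 with all arrays; the cause was not tested. Leaving out 1 array at a time gave 0.31 to 0.62 for Fcgr1, 0.11 to 0.29 for Fcgr3, 0.15 to 0.38 for Fcgr4, 0.03 to 0.09 for Fcer1g, -0.049 to 0.10 for Fcgr2b and -0.12 to -0.01 for Fcer1a. Adjusted p-values over the alternatives ran from 0.366 to 0.998. The count of genes past the threshold was 0 with all arrays and 0 to 128 without 1 array: 128 without peritumoral 7, 20 without peritumoral 8, and 88 without peritumoral 4 and 7. The rank-sum test called 0, with 2307 genes at an unadjusted p under 0.05, against 2292 in limma.

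No label says whether same-numbered arrays belong together. Their deviations from the label means correlated at -0.56 to 0.29. These values cannot decide it, because the first component sets arrays of the same number far apart, as with tumoral 1 (30.5) and peritumoral 1 (-17.8). The replicate block called 0 genes, with limma adjusted p-values of 0.708 for Fcgr1 and 0.895 for Fcgr2b. It could not change a difference, since each number occurs once under each label. Without peritumoral 4 and 7 the list medians turned sign for recycling genes (-0.03, against 0.03 with all arrays), cytokine and interferon genes (-0.04, against 0.03) and B and plasma cell genes (0.08, against -0.28). Fcer1a has no value among genes above the median level, and no member has a second probe set. Centring on array medians moved the median of all genes by 0.04.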
